A study of Mus musculus with 6 samples.

Results

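Cytosolic ribosomal protein genes encode the proteins that, with ribosomal RNA, make up the small (40S) and large (60S) subunits of the cytosolic ribosome. They were followed in haematopoietic stem cells (HSC) with and without intact Lig4, the gene for DNA ligase IV, the enzyme that seals broken DNA in non-homologous end joining. Members were taken by symbol: genes named alone by a probe set in the array's annotation as Rpl or Rps with a number, or as Rpsa, Rplp0, Rplp1 or Rplp2, without the Rps6k kinases and without pseudogene entries. This gave 50 of the 18193 genes measured, with 106 of the 45101 probe sets. Of these, 43 are canonical ribosomal protein genes, 21 of the small and 22 of the large subunit. A further 6 are paralogues (Rpl3l, Rpl7l1, Rpl22l1, Rpl39l, Rps4l and Rps27l), of which Rps4l is listed as a transcribed pseudogene in the NCBI gene table. The last, Rps19bp1, is a binding protein of the Rps19 product and no ribosomal protein, and entered through its symbol. The label holds for these genes, but the canonical set is not complete. Another 110 probe sets list a ribosomal protein gene together with other genes, mostly pseudogenes, and could not be assigned. Rpl3, Rpl5, Rpl10, Rpl35a and Rplp1 were therefore not among the members.

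The series compared sorted mouse HSC of 2 genotypes on 1-colour Affymetrix expression arrays, to ask what loss of ligase IV function means for stem cell maintenance. Lig4mut animals and wild-type (WT, Lig4+/+) littermates came from crosses between heterozygous Lig4mut/+ parents and were 6 to 8 weeks old. HSC were gated as CD150+ CD48- KSL cells (Kit-positive, Sca-1-positive, lineage-negative marrow cells), there was no other treatment, and each genotype had 3 biological replicates, 6 arrays in all. The labels do not say what the Lig4 mutation is, or if each replicate comes from 1 mouse or from several. The p-values therefore rest only on variation between these samples, shared in part over genes. All levels are log2 values and all differences are Lig4mut minus WT with their standard error (SE) from limma, n = 3 per genotype. This SE is moderated: each gene's variance is drawn toward a value common to all genes. In members with little spread it is therefore wider than their own arrays would give. In bulk RNA, fewer cells of a type and less RNA per cell cannot be told apart.

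Ribosomal proteins assemble with ribosomal RNA in the nucleolus, and cells keep their amounts close to stoichiometric. Most of their mRNAs begin with a 5' terminal oligopyrimidine (TOP) tract, a C followed by a stretch of C and T (U in the RNA), through which the mTORC1 kinase pathway controls how strongly they are translated, so an mRNA level is no measure of protein synthesis. HSC are known for a low and tightly held rate of protein synthesis. Loss of a copy of single ribosomal protein genes causes Diamond-Blackfan anaemia, in which unassembled 5S ribonucleoprotein (Rpl5, Rpl11 and 5S RNA) binds Mdm2 and stabilises p53.

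The start-site sequences of members are printed here because the tract is the feature the gene class is known by. They show runs of C and T near an annotated start, and not which base the mRNA begins with in these cells. RefSeq promoters of the mouse build GRCm38.p6 were available for 44 of the 50 members, with 52 annotated starts, 44 of them from 38 canonical genes. A run was scored on the gene's own strand as a C followed by at least 5 bases that are C or T, inside 15 bases before to 15 bases after the start. Each line below gives those 30 bases of a start, 5' to 3' on the gene's strand, with the longest run in capitals. The first 6 lines are canonical genes, and the last 4 are paralogues and a gene with no run.
Rpl27a, chr7:109519180-109519209, plus strand: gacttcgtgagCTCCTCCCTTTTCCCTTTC
Rpl7a, chr2:26910792-26910821, plus strand: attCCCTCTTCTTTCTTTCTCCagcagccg
Rpl35, chr2:39005117-39005146, minus strand: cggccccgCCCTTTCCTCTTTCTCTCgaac
Rps10, chr17:27635230-27635259, minus strand: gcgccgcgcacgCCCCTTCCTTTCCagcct
Rps18, chr17:33955651-33955680, minus strand: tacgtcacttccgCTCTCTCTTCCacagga
Rps27, chr3:90213634-90213663, minus strand: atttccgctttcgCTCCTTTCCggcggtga
Rps27l, first of 2 starts, chr9:66946071-66946100, plus strand: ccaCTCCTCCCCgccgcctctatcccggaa
Rpl7l1, chr17:46782642-46782671, minus strand: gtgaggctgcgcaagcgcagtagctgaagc
Rpl3l, first of 2 starts, chr17:24727811-24727840, plus strand: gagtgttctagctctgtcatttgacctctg
Rps3, chr7:99483695-99483724, minus strand: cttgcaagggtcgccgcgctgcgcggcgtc

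Runs of this kind lay at 22 of the 44 canonical starts (50%), beside 22.5% of all 32851 promoters in the table. On the other strand the order was the reverse, with 6.82% of canonical starts and 25.5% of all promoters. Inside the window the runs reached 19 bases in Rpl27a and Rpl7a and 18 in Rpl35. That of Rpl27a ends at the last base of the window, so the full run may be longer. The runs began anywhere from base -13 (Rpl4) to base 7 (Rpl39) around the start, and only that of Rpl38 began at base 1. A run that begins earlier can still cover the first transcribed base. Those of Rps10, Rps18 and Rps27 began at bases -3, -2 and -2 and ran on past base 1, which is a C in each. By this annotation their mRNAs begin inside the run. How many runs do so was not counted. Position by position the shares were uneven: 72.7% of canonical starts had C or T at base 5 after the start and 40.9% at base 10, where all promoters had 50.9% and 48.3%. Base 24, outside the window, had 68.2% against 47%. The 8 starts of the paralogues and Rps19bp1 held 3 runs. In the 300 bases from 250 before to 50 after the start, CCGGAAG, the core of ETS-family sites, was read on either strand in 43.2% of canonical promoters against 8.86% of all. AAGATGG, the core of a YY1 site, was present in 15.9% against 6.34%, and TATAAA, the TATA box core, in 11.4% against 13.6%. The reverse complement of CCGGAAG contains a stretch of 5 pyrimidines, so matches on that strand can share bases with a run. A match is a description of letters, and a missing one says only that these letters are not in this window at the annotated start.

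**Figure D1:**
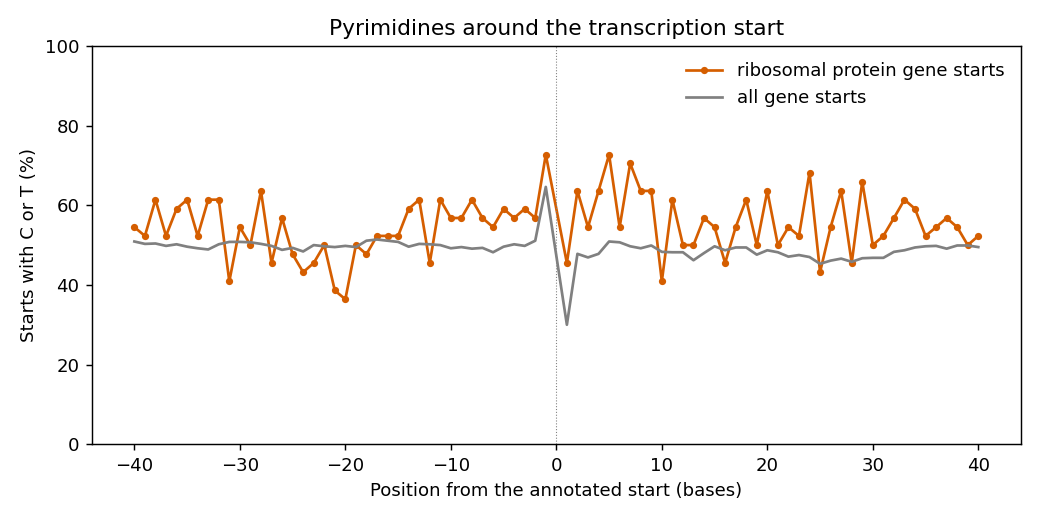
Percent of starts with C or T (vertical axis) at each base from 40 before to 40 after the annotated start (horizontal axis, base 1 is the first transcribed), for the 44 starts of canonical ribosomal protein genes (orange) and for all 32851 promoters (grey). The ribosomal protein starts, which are few, vary from base to base, with 72.7% at base 5 and 40.9% at base 10 against 50.9% and 48.3% of all promoters.

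Of the whole series, the points that touch the members are few. The targeted gene, Lig4, read 7.53, 6.66 and 7.63 in the WT arrays and 4.97, 3.16 and 3.10 in the Lig4mut arrays (-3.53 ± 0.61; limma, adjusted p = 0.13). The medians of the deposited arrays were 6.29 to 6.34 for WT and 5.97 to 6.05 for Lig4mut. After quantile normalization the median difference over all genes was 0.18, and differences are to be read beside that shift. The HSC marker list (16 of 18 measured) had mean levels of 10.20 to 10.36 in WT and of 10.37, 9.35 and 9.92 in Lig4mut arrays 1, 2 and 3. In value 11 of the 16 were lower in Lig4mut and 5 (31.2%) higher, beside 61.4% of all genes. These counts were 11 and 5 on the deposited values and 9 and 7 with centred arrays. At an unadjusted p under 0.05 by limma 3 (18.75%) were lower and 1 (6.25%) higher, where 4.18% and 15.5% of all genes were. The granulocyte list (13 of 13 measured) averaged 10.40 in Lig4mut array 2 and 5.97 to 8.07 in the other 5 arrays. Y-linked genes (3 of 4 measured) averaged 9.44, 8.68 and 5.23 in WT arrays 1, 2 and 3, and 8.38, 4.78 and 8.52 in those of Lig4mut. WT array 3 and Lig4mut array 2 were thus low in them. With this level as a covariate, again no member passed the adjusted threshold by limma. Higher values in Lig4mut were found in all 10 measured B cell, all 8 endothelial, all 8 T and NK cell and 9 of 11 macrophage and dendritic cell markers, beside 61.4% of all genes. On the deposited values these were 9, 8, 6 and 9, beside 51.5%. B cell means were 5.92 to 6.04 in WT and 6.25 to 6.92 in Lig4mut, macrophage means 6.27 to 6.77 and 7.23 to 7.66, T and NK cell means 4.68 to 5.17 and 5.14 to 5.57, and endothelial means 7.63 to 9.09 and 8.79 to 9.73. The part these cells play in the values of the ribosomal protein genes was not tested.

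None of the 50 ribosomal protein genes and paralogues passed the threshold over all genes (limma, Benjamini-Hochberg adjusted p under 0.05), which 0.011% of all genes did (2 of 18193). Values were higher in Lig4mut for 21 members and lower for 29, where all genes had 11174 higher and 7019 lower. At an unadjusted p under 0.05 by limma, 2 members were higher, the paralogues Rps4l and Rpl3l, and 1 was lower, Rps27. Among all genes 15.5% were higher and 4.18% lower at that level, so the members' shares of 4% and 2% lie under the background in both directions. In each of the 3 fits that left out a WT array, no member was higher at that level. Without Lig4mut array 1 the count was again 2, but neither Rps4l nor Rpl3l was among them. The scaling also moves the split: 2 higher and 1 lower with quantile normalization were 0 and 1 on the deposited values, 6 and 1 with arrays centred on their medians and 1 and 1 with cyclic loess. The background moves too. Of the 18193 genes, 1225 were higher and 986 lower on the deposited values, and 3361 and 470 with centred arrays. With cyclic loess these counts were 1584 and 794. The 3 Lig4mut arrays lay wholly above the WT arrays in 5 members (Rps4l, Rps16, Rpl3l, Rps2 and Rpl27) and wholly below them in 4 (Rps27, Rpl7l1, Rps3a1 and Rps4x). For all genes those shares were 21% and 5.65%.

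The members' differences were small. Their median was -0.025, beside 0.18 for all genes, or -0.20 relative to it. This relative median was -0.045 on the deposited values and also with centred arrays, -0.067 with cyclic loess, and -0.062 when genes under the 40th percentile of level were left out, so its size depends on the scaling and on the dim genes it is read against. Differences within 0.2 of 0 in either direction were found in 39 members (78%), against 24.5% of all genes. A member's SD over replicate arrays had a median of 0.060 in WT and 0.081 in Lig4mut, while for all genes these were 0.28 and 0.45.

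**Figure D2:**
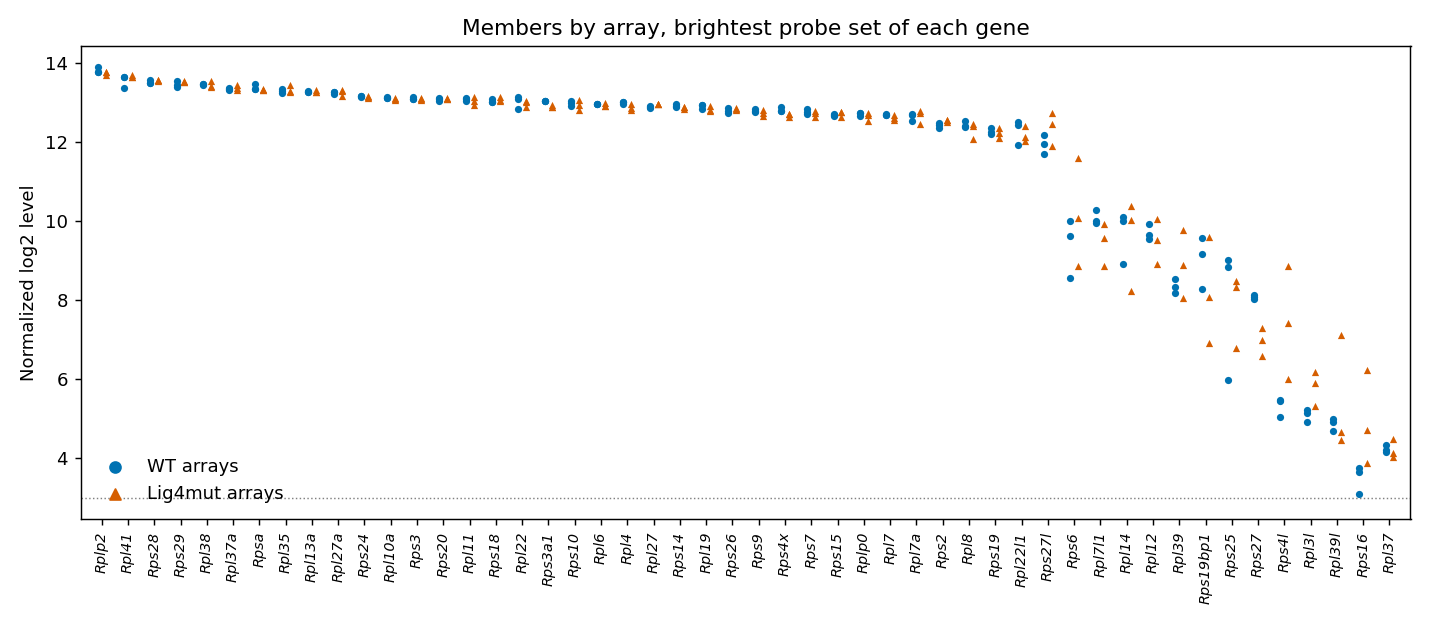
Normalized log2 level (vertical axis) of the brightest probe set of each of the 50 members (horizontal axis, ordered by mean level), with a blue circle for each of the 3 WT arrays, an orange triangle for each of the 3 Lig4mut arrays, and the floor of 3 as a dotted line. In the 35 canonical genes with means of at least 12 the 6 points nearly coincide, and they spread apart in the dimmer probe sets on the right; heights of different probe sets are not comparable as amounts of mRNA.

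A bright group held most of the canonical genes. In 35 of the 43, 17 of the small and 18 of the large subunit, the brightest probe set had a mean of at least 12, a level chosen after the values were seen. Their differences ran from -0.14 (Rps3a1) to 0.12 (Rps2), with 21 lower and 14 higher, a median of -0.026 and none at an unadjusted p under 0.05. The median was -0.026 in the small and -0.028 in the large subunit, so the subunits stood side by side. The 95% intervals of all 35, from the moderated SE, lay between -0.54 (Rpl8) and 0.46 (Rpl41). This bounds each gene at 1.45-fold lower and 1.37-fold higher on this scale. These limits were -0.51 and 0.55 on the deposited values, -0.51 and 0.63 with cyclic loess, and -0.27 and 0.97 with centred arrays. Replicate arrays differed little, with a median SD of 0.039 in WT and 0.046 in Lig4mut.

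After quantile normalization the bright group was level array by array as well. That step gives every array the same distribution, so it removes a shift shared by the top of the scale. On each array 99.1% to 99.4% of deposited probe set values lay below the whole group. Its median deviation from the WT mean was -0.022, -0.012 and 0.0056 in Lig4mut arrays 1, 2 and 3, and -0.0061, -0.0056 and 0.00082 in the WT arrays. On the deposited values the Lig4mut arrays had -0.041, 0.020 and -0.012, and the WT arrays -0.014, 0.0097 and 0.012. Array 2, with the high granulocyte list, thus did not stand apart in this median. The widest deviation of a bright gene in it was -0.38, in Rpl8, which read 12.42, 12.55 and 12.39 in WT and 12.40, 12.08 and 12.46 in Lig4mut.

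Other bright genes give the values to read these beside. The 150 non-member genes with means of at least 12 had a median difference of -0.043 and a median absolute difference of 0.11, against 0.048 in the 35 ribosomal protein genes. Of them 115 (76.7%) lay within 0.2 of 0. At an unadjusted p under 0.05 by limma 1 (0.67%) was higher and 5 (3.33%) lower, where 15.5% and 4.18% of all genes were. The difference between these groups of genes was not tested. The bright members also sit near the top of the scale: on each array 24 to 30 of the 35 lay within 1 log2 unit of the highest deposited value, which was 13.68 to 13.85. Whether the scale is compressed there was not tested.

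The scaling sets where the bright group sits relative to 0. On the deposited values its differences ran from -0.15 to 0.21 with a median of -0.024, and with cyclic loess from -0.094 to 0.25 with a median of 0.028 and 25 of 35 higher. With arrays centred on their medians all 35 were above 0, from 0.17 to 0.52. Of the 35, 2 were higher at an unadjusted p under 0.05, as were 3361 of all 18193 genes in that scaling. The median of all genes moved with it, to 0.020, 0.095 and 0.33 in turn. Relative to all genes the bright group's median was therefore below in each of the 4 scalings, while its sign against 0 flips. Centring shifts each array by a constant, so relative to all genes it repeats the deposited values by construction. The 150 other bright genes were below all genes too. Their medians were -0.043 with quantile normalization, -0.052 on the deposited values, 0.26 with centred arrays and 0.015 with cyclic loess.

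**Figure D3:**
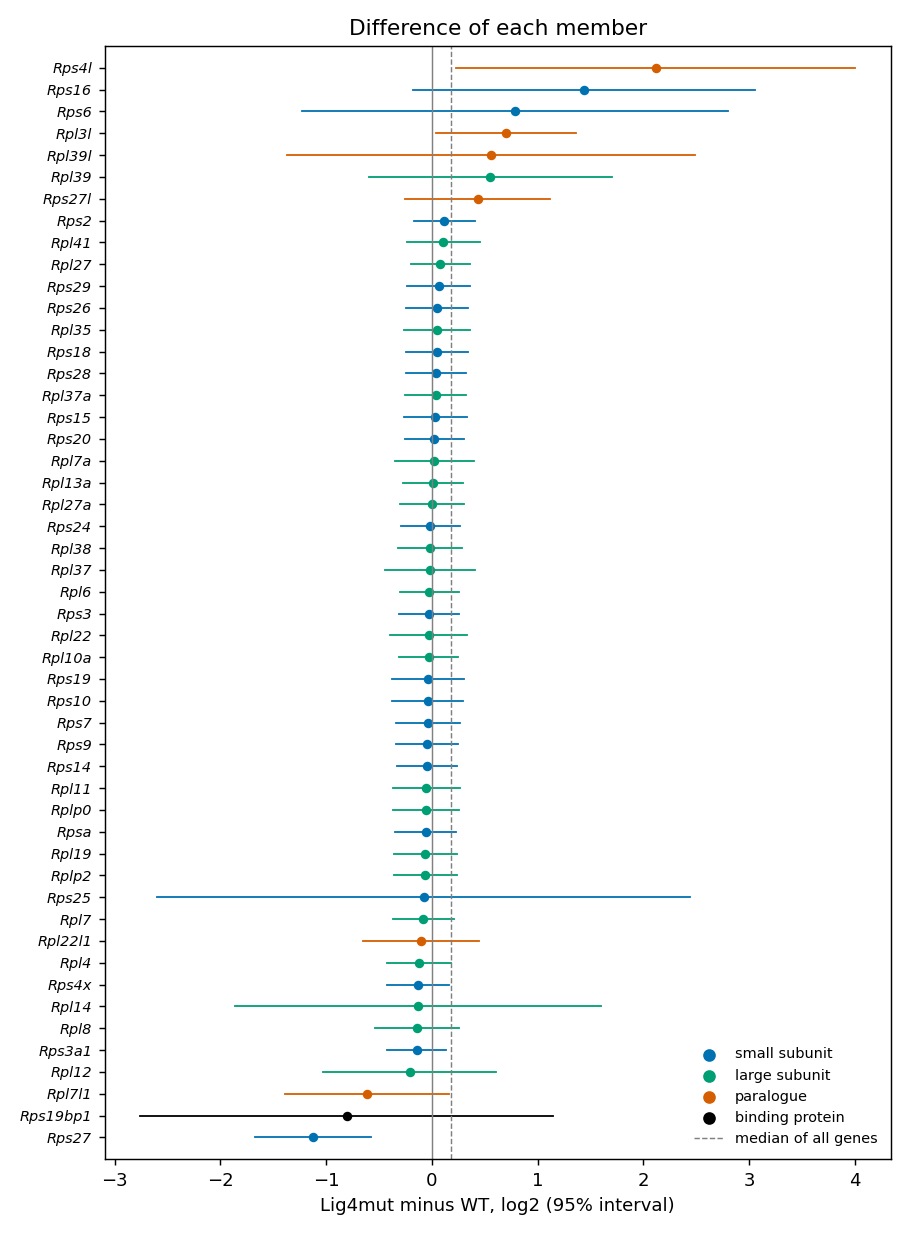
Difference between Lig4mut and WT (horizontal axis, log2) of each of the 50 members (vertical axis) with its 95% interval from limma, coloured by class: small subunit blue, large subunit green, paralogue orange, Rps19bp1 black. The solid line marks 0 and the dashed line the median of all genes, 0.18; the bright canonical genes crowd within 0.2 of 0, and Rps27, Rps4l and Rpl3l have intervals that leave out 0.

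Small-subunit genes were close to level, apart from Rps27 and the dim Rps16, Rps6 and Rps25. Rps3a1, a protein near the mRNA exit of the small subunit, read 13.05, 13.06 and 13.05 in WT and 12.93, 12.89 and 12.90 in Lig4mut. The Lig4mut arrays were all below, by 0.14 ± 0.11 (limma, adjusted p = 0.52), a gap that repeats between arrays but is 1.10-fold. The SD of Rps3a1 was 0.0055 in WT and 0.022 in Lig4mut, so this SE stems mostly from the variance shared over genes. It was 0.066 with robust moderation and a variance trend. Rps4x, encoded on the X chromosome, read 12.89, 12.81 and 12.78 in WT and 12.71, 12.72 and 12.65 in Lig4mut (-0.13 ± 0.11; adjusted p = 0.57 by limma). Its arrays did not overlap either. Both signs turn with centred arrays, to 0.17 in Rps3a1 and 0.18 in Rps4x, and that of Rps4x to 0.45 when its probe sets are averaged.

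Rps2, which helps to form the mRNA entry channel, leaned the other way. It read 12.49, 12.38 and 12.43 in WT and 12.56, 12.57 and 12.52 in Lig4mut (0.12 ± 0.11; limma, adjusted p = 0.61). Its Lig4mut arrays were all above WT, by 1.09-fold. Rps3, an entry-channel protein also known for activity on damaged DNA, differed by -0.026 ± 0.11. Rpsa, also known as the laminin receptor, differed by -0.060 ± 0.12. Neither gene's arrays separated by genotype.

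Rps19, the gene most often mutated in Diamond-Blackfan anaemia, read 12.22, 12.36 and 12.26 in WT and 12.24, 12.38 and 12.11 in Lig4mut. The genotypes overlapped, and the difference was -0.036 ± 0.13 with a 95% interval of -0.37 to 0.30. Rps14, whose loss of a copy underlies the anaemia of the 5q- syndrome, differed by -0.050 ± 0.11, and Rps24 by -0.016 ± 0.11 with an interval of -0.30 to 0.26. The arrays of both overlapped. Rps19bp1, the binding protein, varied far more, at 8.28, 9.17 and 9.59 in WT and 8.10, 6.92 and 9.61 in Lig4mut (-0.81 ± 0.77; limma, adjusted p = 0.61). Its lowest value was in Lig4mut array 2, and without that array the genotypes differed by -0.16.

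Of the Diamond-Blackfan list, 13 of 22 genes were measured. Their median difference was -0.016, 6 were higher and 7 lower in value, and none passed the adjusted threshold. At an unadjusted p under 0.05 by limma 1 (7.69%), Rps27, was lower and none higher, where 4.18% and 15.5% of all genes were. The other 12 lay between -0.14 (Rpl8) and 0.079 (Rpl27). The list's median was 0.039 with cyclic loess and 0.30 with centred arrays, so its sign follows the scaling.

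Rps27, a zinc-finger protein of the small subunit that is also on that list, had the lowest difference of the 50 members. Its single probe set read 8.07, 8.03 and 8.15 in WT and 7.30, 6.99 and 6.58 in Lig4mut. The WT arrays were tight and every Lig4mut array lay below them. The difference was -1.12 ± 0.22, with a 95% interval of -1.67 to -0.58, 2.18-fold lower in value (limma, adjusted p = 0.14), and it missed the threshold over all genes. It was -1.33 on the deposited values and -1.28 to -0.92 when any 1 array was left out. Another probe set that lists Rps27 with other genes was not assigned to it, so this value rests on 1 probe set well below the bright group. The printed start of Rps27 has a run of 9 pyrimidines.

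Other small-subunit genes, Rps6, Rps16 and Rps25, were read only by dim probe sets and varied widely between arrays of a genotype. From 1 to 9 probe sets that list each of them with other genes were left out. Rps6, the target of the S6 kinases, read 8.55, 10.00 and 9.62 in WT and 8.87, 11.59 and 10.07 in Lig4mut (0.79 ± 0.79). The high value is that of Lig4mut array 2, without which the difference was 0.081. Rps16 read 3.66, 3.10 and 3.76 in WT and 3.88, 4.72 and 6.24 in Lig4mut (1.44 ± 0.64; limma, adjusted p = 0.30). All WT values were within 1 unit of the floor of 3 and the Lig4mut arrays were spread, with 0.80 left without array 3. Rps25, known for a role in internal initiation, read 8.85, 5.98 and 9.03 in WT and 8.49, 8.35 and 6.79 in Lig4mut (-0.077 ± 0.99), and 1 array in each genotype was low.

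Large-subunit genes held to the same narrow range where bright. Rpl11, the 5S-particle protein that binds Mdm2, read 13.05, 13.11 and 13.13 in WT and 13.16, 12.93 and 13.04 in Lig4mut. The arrays overlapped, at -0.053 ± 0.12 with an interval of -0.37 to 0.26. Rpl27 read 12.91, 12.89 and 12.86 in WT and 12.97, 12.97 and 12.96 in Lig4mut (0.079 ± 0.11; limma, adjusted p = 0.74). Its arrays did not overlap, by a margin of under 0.1. Rpl38, known for the translation of Hox mRNAs, differed by -0.017 ± 0.12, and Rpl10a by -0.032 ± 0.11. Rpl7 differed by -0.080 ± 0.11, and Rpl22, which is needed in developing T cells, by -0.031 ± 0.14.

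The stalk recruits the elongation factors, and 3 of its 4 listed genes were measured. Rplp0, its base, differed by -0.054 ± 0.12, Rplp2 by -0.063 ± 0.12 and Rpl12, which sits beside the base, by -0.21 ± 0.32. All 3 values were below 0, none at an unadjusted p under 0.05. The signs are not settled: with centred arrays the values were 0.24, 0.30 and 0.10, and without Lig4mut array 2 those of Rplp0 and Rpl12 were 0.0046 and 0.085. Rpl12 was read by a dimmer probe set, at 9.92, 9.56 and 9.65 in WT and 9.54, 8.91 and 10.05 in Lig4mut, and its genotypes overlapped.

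The other large-subunit genes with means under 12 were uneven between arrays of a genotype. Rpl39, which lines the peptide exit tunnel, read 8.19, 8.54 and 8.34 in WT and 8.06, 8.90 and 9.77 in Lig4mut (0.55 ± 0.45), and without Lig4mut array 3 the difference was 0.12. Rpl14 read 10.11, 10.00 and 8.91 in WT and 10.02, 10.38 and 8.23 in Lig4mut (-0.13 ± 0.68), with the third array of each genotype low. Rpl37 was dim and level, at 4.15, 4.21 and 4.33 in WT and 4.48, 4.02 and 4.13 in Lig4mut (-0.019 ± 0.17). In each of these genes the arrays overlapped.

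Apart from Rpl22l1 (-0.10), the paralogues lay outside the narrow range of the bright canonical genes. Over all 6 the differences ran from -0.62 to 2.12, with a median absolute difference of 0.59. It was 0.38 in the 8 canonical genes with means under 12, whose differences ran from -1.12 to 1.44. The median of the paralogues was 0.50, and 4 of 6 were higher in value. At an unadjusted p under 0.05 by limma 2 of 6 were higher and none lower, where 15.5% and 4.18% of all genes were, and none passed the adjusted threshold. On the deposited values none was under that level. Rps4l, the pseudogene entry related to Rps4x, read 5.04, 5.46 and 5.48 in WT and 7.44, 6.01 and 8.88 in Lig4mut. Every Lig4mut array was above WT, but they differed from each other by nearly 3 units. The difference was 2.12 ± 0.74, 4.33-fold in value (limma, adjusted p = 0.22), and 1.40 to 2.81 without any 1 array. Without any 1 WT array, without Lig4mut array 1, or on the deposited values, it was not under an unadjusted p of 0.05. The WT levels lie below the array medians, no source used here gives detection calls, and so the fold is no firm measure of a change in mRNA.

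Rpl3l, a form of Rpl3 known from heart and skeletal muscle, read 4.93, 5.14 and 5.23 in WT and 5.91, 6.18 and 5.31 in Lig4mut. The arrays did not overlap, but Lig4mut array 3 was close to WT. The difference was 0.70 ± 0.26 (limma, adjusted p = 0.23) and 0.40 on the deposited values. It was not under an unadjusted p of 0.05 there, with cyclic loess, or when any array but Lig4mut 3 was left out.

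Rpl7l1, a nucleolar relative of Rpl7, read 10.28, 9.95 and 10.02 in WT and 8.88, 9.58 and 9.93 in Lig4mut. The Lig4mut arrays were all below (-0.62 ± 0.30; limma, adjusted p = 0.34), although array 3 came within 0.1 of WT, and without array 1 the difference was -0.33. Its other 2 probe sets went opposite ways, at -1.16 (adjusted p = 0.21 in limma's fit over all probe sets) and 0.90, the latter high in Lig4mut array 2. Rpl7l1 therefore had no single direction over its probe sets.

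Rps27l, a paralogue of Rps27 known as a target of p53, read 11.70, 12.19 and 11.95 in WT and 12.75, 11.92 and 12.47 in Lig4mut. Lig4mut arrays 1 and 3 were above all WT arrays and array 2 was among them. The difference was 0.43 ± 0.27 (limma, adjusted p = 0.44), with 0.48 and 0.70 in its other 2 probe sets, and 0.67 without Lig4mut array 2. Rps27 and Rps27l thus had values of opposite sign. That contrast was not tested.

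Rpl22l1, which can take the place of Rpl22, read 11.94, 12.52 and 12.43 in WT and 12.13, 12.04 and 12.41 in Lig4mut (-0.10 ± 0.22). The genotypes overlapped. Rpl39l, a form of Rpl39 known from testis, read 4.99, 4.68 and 4.91 in WT and 4.46, 4.67 and 7.12 in Lig4mut (0.56 ± 0.76). Only Lig4mut array 3 was high, and without it the difference was -0.30.

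**Figure D4:**
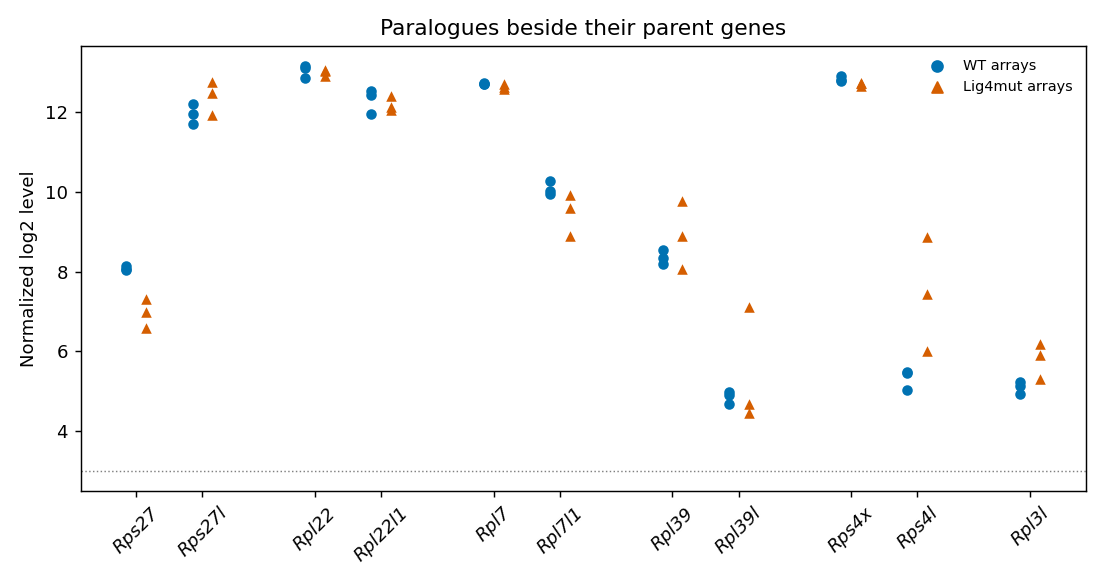
Normalized log2 level (vertical axis) of each paralogue beside its parent gene (horizontal axis; Rpl3 is not among the members), with a blue circle per WT array, an orange triangle per Lig4mut array and the floor of 3 as a dotted line. Rps27 separates downward and Rps4l upward in Lig4mut, Rpl39l rests on 1 array at 7.12, and Rpl22, Rpl7 and Rps4x stay within a narrow band.

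All probe sets of the members were also tested one by one, because 24 members had more than 1. Of the 106, 7 were higher and 5 lower at an unadjusted p under 0.05, against 12.1% and 5.57% of all 45037 probe sets. None passed the threshold adjusted over the probe sets, as for all probe sets (0%). The count of 12 was 5 to 7 in each fit without a WT array and 7 without Lig4mut array 2. It was 7 on the deposited values and 21 with centred arrays. The probe sets of 9 of the 24 members all lay on 1 side of 0, and those of the other 15 went both ways.

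Bright and dim probe sets behaved differently in size. The 65 probe sets with means of at least 12 had a median difference of -0.0078, 63 of them were within 0.2 of 0, and 1 was higher at an unadjusted p under 0.05, the second probe set of Rps7 (0.41 ± 0.15). Of the 41 under 12, 8 were within 0.2, 6 were higher and 5 lower at that level, and the median SD was 0.30 in WT and 0.54 in Lig4mut. Under a mean of 9 there were 27, with 22.2% higher and 11.1% lower, where all probe sets under 9 gave 13.7% and 5.17%. These counts come from few probe sets and were not tested against each other.

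Several genes therefore gave different answers by probe set. The brightest probe set of Rps3 differed by -0.026, while its dimmest read 4.40, 3.94 and 4.08 in WT and 5.01, 5.01 and 5.33 in Lig4mut (0.98 ± 0.18, adjusted p = 0.12 in limma's fit over all probe sets). That probe set separated the genotypes, and so did the third, at 0.68 ± 0.27. A second probe set of Rps4x read 7.06, 8.02 and 7.81 in WT and 8.43, 8.64 and 8.89 in Lig4mut (1.02 ± 0.30, adjusted p = 0.20), opposite in sign to the first. Dim probe sets of Rps24 (0.84 ± 0.25) and Rpl27a (0.71 ± 0.18) were also higher at an unadjusted p under 0.05, with bright ones of the same genes at -0.016 and 0.0028.

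At the same level, dim probe sets of other genes were lower. One of Rps20 read 7.85, 8.89 and 8.22 in WT and 7.78, 6.47 and 5.95 in Lig4mut (-1.59 ± 0.57, adjusted p = 0.25), with the brightest probe set of that gene at 0.023. One of Rpl22 differed by -0.92 ± 0.30 (adjusted p = 0.22) and one of Rpl41 by -0.75 ± 0.28 (adjusted p = 0.27). A probe set of Rps9 read 7.96, 8.14 and 8.25 in WT and 5.42, 4.89 and 8.12 in Lig4mut (-1.97 ± 0.91, adjusted p = 0.35) and did not pass, with Lig4mut array 3 at the level of WT. What these dim probe sets detect was not tested.

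**Figure D5:**
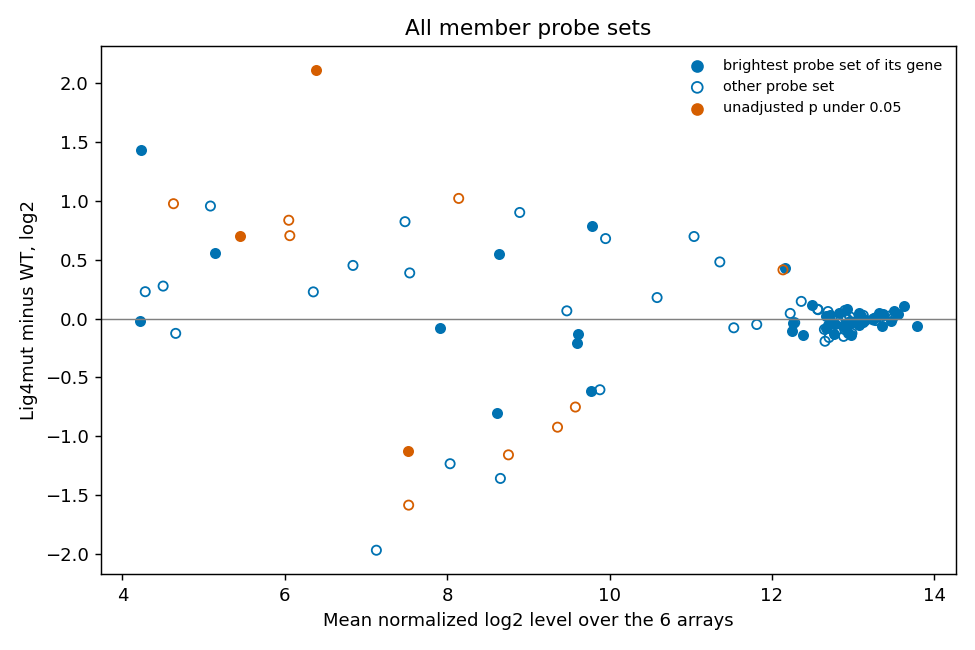
Difference between Lig4mut and WT (vertical axis, log2) against mean normalized log2 level over the 6 arrays (horizontal axis) for the 106 probe sets of the members: filled for the brightest probe set of a gene, open for others, orange for an unadjusted p under 0.05 by limma. Above a mean of 12 the points gather around 0, and 11 of the 12 orange points lie below that level, on both sides of 0.

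Genes around the ribosome were taken from lists for comparison. Other mRNAs known to carry a TOP tract (15 of 16 measured) had lower values in 13 of 15 and a median of -0.10. At an unadjusted p under 0.05 by limma 2 of 15 (13.3%) were lower and none higher, where 4.18% and 15.5% of all genes were. In 6 of the 15 the Lig4mut arrays were all below WT, a larger share than the 5.65% of all genes. The direction depends on the scaling: the median was -0.11 on the deposited values, -0.044 with cyclic loess and 0.20 with centred arrays, where 12 of 15 were higher in value. Eif3k, an initiation factor subunit, differed by -0.40 ± 0.14 and Eif3h by -0.36 ± 0.14 (adjusted p = 0.21 and 0.25 by limma). Pabpc1, which binds poly(A) tails, differed by -0.25 ± 0.12. The ribosomal protein genes of the bright group, at a median of -0.026, had 21 of 35 lower. The difference between the lists was not tested. Fau, which encodes a small-subunit protein in fusion with a ubiquitin-like one, differed by -0.043 ± 0.13.

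In the list of the 5S particle and its Mdm2 axis (7 of 9 measured, Rpl5 and Trp53 not among them), none passed an unadjusted p under 0.05 and the median was -0.12. Mdm2, the ubiquitin ligase of p53, read 10.88, 10.64 and 10.99 in WT and 10.72, 8.92 and 7.32 in Lig4mut (-1.85 ± 0.87; limma, adjusted p = 0.32). Cdkn1a, a p53 target, differed by 1.03 ± 0.66 (adjusted p = 0.45 by limma). The genotypes overlapped in both.

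The mTORC1 and S6 kinase list (16 of 18 measured) had a median of -0.18, with 1 gene (6.25%) higher and none lower at an unadjusted p under 0.05, which is under the 15.5% of all genes that were higher: Rps6ka3, an ERK-activated kinase of ribosomal protein S6, at 1.24 ± 0.41 (limma, adjusted p = 0.20). Of the genes that transcribe ribosomal DNA (16 of 18 measured, median -0.10) none passed that level. Of 44 measured ribosome assembly factors of 46 listed (median -0.17), 1 (2.27%) was higher, Utp4 (1.02 ± 0.23; limma, adjusted p = 0.15), and 2 (4.55%) were lower, Wdr12 (-0.63 ± 0.22) and Rcl1 (-0.78 ± 0.29). Those shares lie under and near the 15.5% and 4.18% of all genes. None of these lists had a gene past the adjusted threshold. Their medians were below 0 with quantile normalization and on the deposited values, and above 0 with centred arrays: 0.20 for the 5S particle and Mdm2 list, 0.12 for mTORC1, 0.24 for ribosomal DNA transcription and 0.20 for assembly factors. With cyclic loess that of ribosomal DNA transcription was 0.015.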

How the data were processed

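RNA of sorted HSC from 3 WT and 3 Lig4mut samples had been extracted with Trizol and hybridised to 1-colour arrays, per the labels' protocols. The authors deposited log2 values per probe set, and the submitters' processing notes name RMA without a version. Values stop at exactly 3, a floor that no source used here explains. Precision is limited by the number of arrays, since arrays have no read depth.

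Probe sets (45101, 64 of them controls) were named through the platform annotation: 34945 have 1 gene, 932 several and 9160 none. Symbols of 34741 were updated by gene identifier to NCBI's table for GRCm38.p6. Because array medians differed, the values were quantile normalized over the 6 arrays. Each of 18193 genes was represented by its probe set of highest mean, and tested by lmFit and eBayes of limma 3.58.1 (R 4.3.3, two-sided) with Benjamini-Hochberg adjustment over all genes at 0.05. A second fit covered the 45037 probe sets that are no controls. The fits were tested on simulated data. The smallest two-sided p of an exact permutation test on 3 against 3 is 0.1, so none was run.

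Named are members past the adjusted threshold, up to 8 per direction whose arrays do not overlap, members with a known role or paralogue, and up to 3 genes of smallest p per list. Other members, and single probe sets, were named after their values were seen. The members, lists and alternatives were chosen with earlier results of these data known. The alternatives took in a block for the replicate number, each array left out, deposited, median-centred and cyclic loess values, a filter on dim genes, other rules for probe sets and members, robust moderation with a variance trend, weights per array and the Y-linked level as a covariate. Chosen after the data were seen were the bright members alone and the shared probe sets. No genome or protein table was used. Start sites are those of RefSeq for GRCm38.p6.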

Additional observations from a re-analysis of the deposited data

How the results depend on the processing

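No member passed the adjusted threshold in limma in any alternative run. Of 458 values of named members under the alternatives, 455 kept their side of the threshold and direction beyond 1 SE. The exceptions were Rps3a1 (0.17) and Rps4x (0.18) with centred arrays and Rps4x (0.45) with probe sets averaged. Among the 455, 44 differences within 1 SE of 0 changed sign. The lowest adjusted p of a member in the main fit was 0.14 by limma (Rps27), so keeping that side was a weak test. The replicate block and the robust moderation with a variance trend cannot change a difference. The count of members higher at an unadjusted p under 0.05, 2, became 1 with the replicate block (Rps4l, without Rpl3l), 0 on deposited values, 6 with centred arrays, 1 with cyclic loess, 1 with dim genes left out, 5 with probe sets averaged, 0 without the paralogues and Rps19bp1, and 0 to 2 without any 1 array. The count lower, 1, became 2 without probe sets of the x and s kinds and 1 to 2 without any 1 array. Over all genes the count higher, 2826, became 1225 on deposited values, 3361 with centred arrays and 1584 with cyclic loess. The relative median, -0.20, became -0.045 on deposited values and with centred arrays, -0.067 with cyclic loess, -0.062 with dim genes left out, -0.16 with probe sets averaged, and -0.22 to -0.17 without any 1 array. The 12 member probe sets became 7 on deposited values, 21 with centred arrays, 5 to 12 without any 1 array and 8 with the replicate block; the shared probe sets gave 6. The values show no pairing by replicate number: deviations of same-numbered arrays correlated at 0.036, 0.010 and -0.032. Such correlations cannot tell if same-numbered samples were bred, sorted or hybridised together. The cause of these shifts was not tested, except that leaving members out of the count lowers it by construction.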

Other observations

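The 110 probe sets that list a ribosomal protein gene together with other genes give no gene's value, but describe the class further. Their median difference was 0.0019, with 57 higher and 53 lower in value. At an unadjusted p under 0.05 by limma 6 (5.45%) were higher and none lower, where 12.1% and 5.57% of all probe sets were, and none passed the adjusted threshold. The 78 with a mean of at least 12 lay between -0.20 and 0.14, none at an unadjusted p under 0.05, with a median SD of 0.043 in WT and 0.057 in Lig4mut.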
